A study of Homo sapiens with 4 samples.

Results

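The stop codon class was made of m7G peaks whose largest overlap with the mRNA of their gene fell in the 203 nt formed by the stop codon and 100 nt on each side of it. It held 300 of the 8070 peaks listed for HL60 cells and 286 of the 8122 peaks listed for HL60/MX2 cells, 586 of 16192 in all. Each peak was placed on the transcript with the longest coding sequence of the gene with which it shared the most exon bases on its own strand. HL60 is a human promyelocytic cell line of acute myeloid leukemia, labelled wild type, and HL60/MX2 is a drug-resistant line of the same origin. The labels name no drug given to either line, and both were collected in logarithmic growth. In both lines the mRNA was selected with oligo(dT) beads, treated with a tobacco enzyme that removes the cap, and fragmented before an antibody against m7G was applied. Each line gave 1 enriched and 1 input library, and the input libraries were not analysed here. With 1 library per line there was no replicate and no test. All intervals printed with shares are 95% intervals by the exact Clopper-Pearson method and hold no more than counting error. The read depth behind a peak is unknown, and the number of peaks limits the precision.

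The stop codon is the triplet at which the ribosome releases the finished protein, and in most human mRNAs it lies in the last exon, followed by the 3' untranslated region (3'UTR), which regulates stability and translation. A stop codon upstream of a splice junction can mark an mRNA for nonsense-mediated decay. m7G is best known as the cap at the 5' end, and it is also made inside tRNA and mRNA, where METTL1 with WDR4 is the known enzyme pair. For another mark, m6A, the surroundings of the stop codon are the classical place of enrichment in mRNA.

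The coding bases that the lines had in common are shown first, because a peak in both lists is the closest that these data come to a repeated measurement. Bases are from the hg19 genome on the strand of the gene, the stop codon is in capitals where the overlap reached it, and no base past the stop codon is shown. SPICE1, a centriole and spindle protein, had a peak over the same whole exon in both lines (chr3:113165436-113165523, minus strand), as had PTPN20B, a tyrosine phosphatase (chr10:48739388-48739450, minus strand). In SH3BGR, a glutamate-rich protein (chr21:40883607-40883671, plus strand), HECW1, a ubiquitin ligase (chr7:43601414-43601507, plus strand), POTEI, an ankyrin repeat protein fused to actin-like sequence (chr2:131220389-131220429, minus strand), and PDE6H, the inhibitory subunit of the cone phosphodiesterase (chr12:15134334-15134410, plus strand), the overlap took in the bases given here.
SPICE1: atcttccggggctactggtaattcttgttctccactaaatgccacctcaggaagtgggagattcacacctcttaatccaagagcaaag
PTPN20B: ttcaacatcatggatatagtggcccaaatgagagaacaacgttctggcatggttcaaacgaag
SH3BGR: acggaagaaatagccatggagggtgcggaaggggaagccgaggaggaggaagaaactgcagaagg
HECW1: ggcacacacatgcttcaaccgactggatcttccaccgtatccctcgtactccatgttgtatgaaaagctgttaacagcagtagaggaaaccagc
POTEI: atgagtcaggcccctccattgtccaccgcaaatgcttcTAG
PDE6H: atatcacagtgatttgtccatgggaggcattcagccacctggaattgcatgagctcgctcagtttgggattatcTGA

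The coding bases before the stop codon are shown next for the members of highest score that covered it, PPIAL4A (a cyclophilin A-like gene, chr1:147954850-147954890, minus strand) and PRTG (protogenin, chr15:55912210-55912252, minus strand) in HL60, and ZNF236 (a zinc finger protein, chr18:74680206-74680295, plus strand) and KRT34 (a hair keratin, chr17:39534311-39534398, minus strand) in HL60/MX2. GC content of these stretches was 43.9% in PPIAL4A, 48.8% in PRTG, 71.1% in ZNF236 and 56.8% in KRT34.
PPIAL4A: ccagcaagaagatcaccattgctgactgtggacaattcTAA
PRTG: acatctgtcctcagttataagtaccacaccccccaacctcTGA
ZNF236: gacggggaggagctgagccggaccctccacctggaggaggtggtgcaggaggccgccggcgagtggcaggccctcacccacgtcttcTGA
KRT34: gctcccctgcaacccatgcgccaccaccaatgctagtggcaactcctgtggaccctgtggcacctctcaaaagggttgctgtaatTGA

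The first question was how much of each list lay around stop codons. In HL60, 4.56% of the 6582 peaks that could be placed on an mRNA were in the class (95% interval 4.07-5.09%), while the stop codon windows made up 4.07% of the length of the mRNAs with such a peak. In HL60/MX2 the share was 4.32% of 6614 peaks (3.85-4.84%), beside 4.16% of the length. The share of the length lay inside the interval in both lines, at its lower end in HL60. The members belonged to 299 genes in HL60 and 286 in HL60/MX2, which is 1.52% and 1.46% of the 19639 genes with an annotated stop codon. SSX7, in HL60, was the gene with a pair of members in 1 line.

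Counted base by base, the share of mRNAs with a peak was highest at 40 nt into the 3'UTR in HL60 (1.65%) and at 580 nt into the coding side in HL60/MX2 (1.83%), among positions 20 nt apart up to 600 nt on either side. At the stop codon itself, the share was 1.60% of the mRNAs in HL60 (1.43-1.78%) and 1.47% in HL60/MX2 (1.30-1.64%). At 600 nt into the coding side the shares were 1.45% (1.27-1.64%) and 1.75% (1.56-1.96%). At 100 nt into the 3'UTR they were 1.62% in HL60 (1.44-1.82%) and 1.23% in HL60/MX2 (1.08-1.41%), and these intervals did not overlap. At 520 nt into the coding side the intervals were also apart, with the order reversed, at 1.25% in HL60 (1.09-1.42%) and 1.61% in HL60/MX2 (1.43-1.81%). Within HL60/MX2 the interval at 100 nt into the 3'UTR also lay below that at 600 nt into the coding side, while within HL60 the intervals of these positions overlapped. Nearer the stop codon this contrast was absent in HL60/MX2. From 500 to 100 nt into the coding side, each interval overlapped that at 100 nt into the 3'UTR. The share at 100 nt into the coding side was 1.51% (1.34-1.69%).

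**Figure D1:**
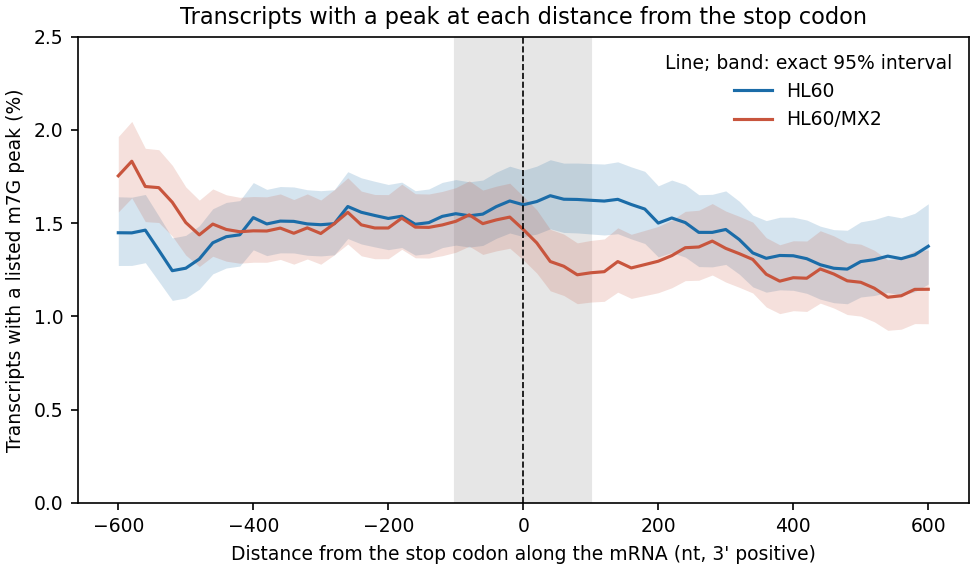
Share of mRNAs with a listed peak (%, vertical axis) at each distance from the stop codon along the spliced mRNA (nt, horizontal axis), for HL60 and HL60/MX2, with exact 95% intervals as bands and the 203 nt window shaded. Neither curve has a maximum at the stop codon, where the shares were 1.60% and 1.47%. The bands lie apart from 40 to 120 nt into the 3'UTR, with HL60 higher, and at 520 nt into the coding side, with HL60/MX2 higher.

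Most members lay across the stop codon. The rule itself favours this position, since its window is centred on the stop codon and is about as wide as the median member is long. In HL60, 223 of 300 members covered at least 1 base of it (74.3%, 69.0-79.2%), 61 lay wholly on the coding side (20.3%, 15.9-25.3%) and 16 wholly on the 3' side (5.33%, 3.08-8.52%). In HL60/MX2, 223 of 286 covered it (78.0%, 72.7-82.6%), 49 were on the coding side (17.1%, 13.0-22.0%) and 14 on the 3' side (4.90%, 2.70-8.08%). The intervals of the lines overlapped for each position. The midpoint was 3' of the stop codon in 43.3% of the HL60 members (37.7-49.2%) and 38.8% of the HL60/MX2 members (33.1-44.7%), with both intervals below an even split. Among members with at least 100 nt of 3'UTR the shares were 45.8% (39.7-51.9%) and 41.3% (35.1-47.7%), and among members over the stop codon 51.1% (44.4-57.9%) and 43.5% (36.9-50.3%), so that an even split was inside the HL60 interval in both of these and inside the HL60/MX2 interval in the latter. Members across the stop codon held a median of 104 coding nt and 105 nt of 3'UTR in HL60, and 102 and 79 nt in HL60/MX2.

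**Figure D2:**
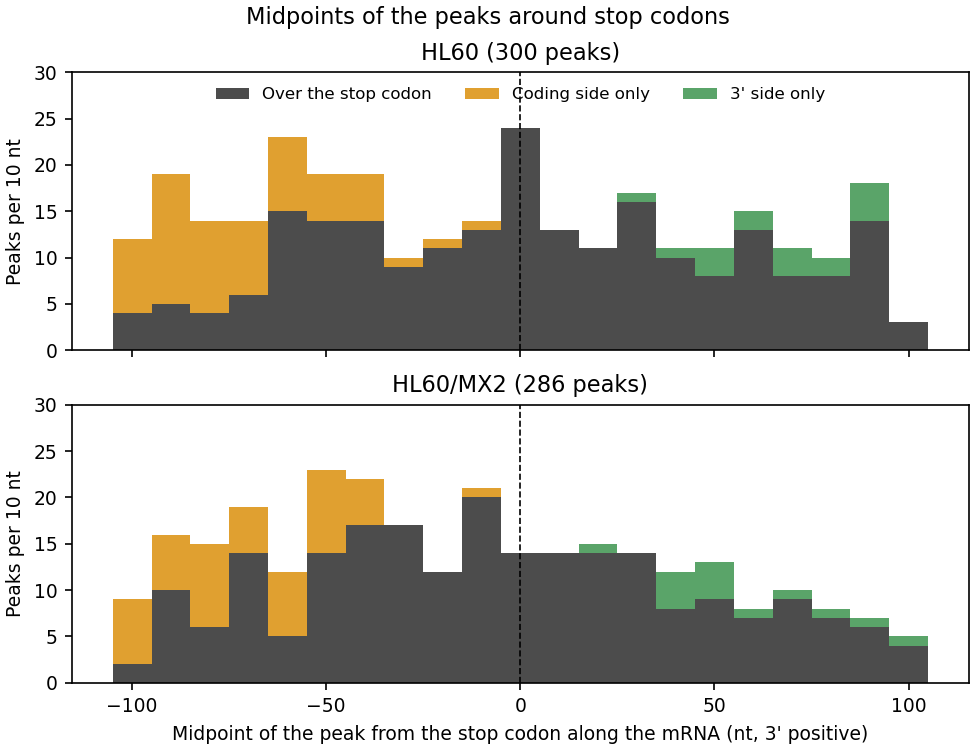
Number of members per 10 nt (vertical axis) by the distance of their midpoint from the stop codon (nt, horizontal axis, 3' positive), with HL60 above and HL60/MX2 below, coloured by whether a peak covered the stop codon or lay on 1 side. Midpoints spread over the whole window, and members on the coding side (61 and 49) outnumbered those on the 3' side (16 and 14).

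The rule put some peaks over a stop codon into other classes. Stop codons were covered by 316 placed peaks in HL60, of which 60 counted to the 3'UTR and 33 to the coding sequence (CDS), and by 294 in HL60/MX2, of which 34 counted to the 3'UTR, 36 to the CDS and 1 to the start codon class. These other peaks were long, with a median of 490 bp in HL60 and 443 bp in HL60/MX2. Membership was decided by 10 nt or less for 24 HL60 and 16 HL60/MX2 members, and 18 and 17 other peaks missed the class by as little.

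Many members reached a splice junction. In HL60, 173 of 300 members reached a junction of their mRNA (57.7%, 51.9-63.3%), and in HL60/MX2 169 of 286 did (59.1%, 53.1-64.8%). A peak that ran on past the exon end was counted as reaching the junction. A listed peak of the same line at the facing end of the neighbouring exon was found for 6 of the 173 (3.47%, 1.28-7.40%) and 6 of the 169 (3.55%, 1.31-7.57%). Of the coding-side members, 42 of 61 in HL60 and 27 of 49 in HL60/MX2 lay in an exon before that of the stop codon. The junction was reached by 36 of the 42 and 26 of the 27, whether or not the peak ran on past it. In those mRNAs the exon with the stop codon held a median of 37 and 32 coding nt. The class rule itself forces a short stretch here. A peak in an earlier exon reaches the window only if the window runs past the start of the stop codon exon. These medians are therefore no separate trait of the mRNAs. A start or end at an exon end was found for 60.3% of the members (54.6-65.9%) against 70.3% (69.1-71.4%) of the other placed peaks in HL60, and 57.3% (51.4-63.1%) against 70.5% (69.3-71.6%) in HL60/MX2. A whole exon was covered by 14.7% of the members (10.9-19.2%) against 26.7% of the other peaks in HL60, and by 12.9% (9.28-17.4%) against 25.6% in HL60/MX2.

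The length of members lay between that of CDS and that of 3'UTR peaks, with a median of 191.5 bp in HL60 and 185.5 bp in HL60/MX2. It was 100 bp in CDS peaks of both lines, 250 and 244 bp in 3'UTR peaks, and 124 and 128 bp over all other placed peaks. Their lengths ran from 1 to 908 bp in HL60 and from 2 to 689 bp in HL60/MX2. Length and GC were taken over the whole listed stretch of the genome. That stretch held bases outside the exons of the mRNA for 29 of 300 HL60 and 45 of 286 HL60/MX2 members. Among the longest, the peak in AP5M1 had only 30 nt on the mRNA, and that in ING3 117 coding nt and 66 nt of 3'UTR. The longest were in TAF4B (908 bp, score 124.43), a subunit of the general factor TFIID, ING3 (806 bp), a subunit of a histone acetyltransferase complex, AP5M1 (718 bp), of an adaptor complex of endosomes, LBH (683 bp) and ADGRL2 (616 bp), an adhesion receptor, in HL60. In HL60/MX2 they were in BEX3 (689 bp) and BEX1 (578 bp), small X-linked genes of one family, the potassium channel KCNJ1 (507 bp), the platelet receptor TREML1 (480 bp) and the synaptic scaffold DLGAP1 (468 bp). Members under 50 bp were 9.67% (6.57-13.6%) in HL60 and 11.2% (7.78-15.4%) in HL60/MX2, against 17.5% and 16.2% of the other peaks.

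The last exon was shorter in the mRNAs of members than in those of the other placed peaks. Its median was 1070 nt in HL60 (quartiles 439.5 and 2417) against 1844 nt (796.25 and 3426), and 978.5 nt in HL60/MX2 (395 and 2488) against 1744 nt (742 and 3305). Over all annotated coding mRNAs the median was 1269 nt. The 3'UTR followed the same order, with medians of 755 and 655 nt in members, 1455.5 and 1383 nt in the others, and 878 nt in the annotation. Coding length had medians of 1293 and 1252.5 nt in members, close to the 1308 nt of all mRNAs, against 1866 and 1786.5 nt in those of the other peaks. The number of exons had a median of 8 in the members of both lines, as in the annotation, and of 12 in the other peaks. The mRNAs of the other peaks were thus longer in every section measured, and the part of mRNA length in the difference of last exons was not tested.

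The stop codon was in the last exon for 89.0% of the HL60 members (84.9-92.3%) and 87.1% of the HL60/MX2 members (82.6-90.7%), against 95.1% and 95.2% of the other placed peaks and 95.1% of all coding mRNAs. The exceptions numbered 33 and 37 members. In HL60 they included TWIST1 (score 779.4), a basic helix-loop-helix factor with the stop codon in the first of 2 exons, and FOXO1 (402.98), a forkhead factor with it in exon 2 of 3. In HL60/MX2 they included PHLDA2 (818.2) and HRK (79.91), also with the stop codon in the first of 2 exons, YBX1 (422.39), a cold shock protein that binds mRNA, HLA-DRA (414.26), of antigen presentation, and KITLG (512.76), the ligand of the receptor KIT. These 7 genes were chosen after their values were seen. ITGB3BP and SH3BGR were exceptions in both lines.

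The SSX genes, cancer testis antigens on the X chromosome, gave the clearest family among these exceptions, and were chosen after their values were seen. The members in SSX2, SSX2B, SSX5 and SSX7 in HL60 and SSX4 in HL60/MX2 each covered a whole exon of 105 nt before the last one. On the transcript used for each gene, the stop codon came after 60 nt of the exon in SSX2 and SSX2B, stop codon included, and after 101 nt in SSX4, SSX5 and SSX7. The exon was read in a different frame in SSX2 and SSX2B than in the others, and other transcripts of these genes were not compared. The coding bases of this exon are printed to show how near the copies were to each other, from chrX:52727079-52727138 (SSX2, minus strand), chrX:48251311-48251411 (SSX4, plus strand), chrX:48047067-48047167 (SSX5, minus strand) and chrX:52674493-52674593 (SSX7, minus strand), with the stop codon in capitals.
SSX2: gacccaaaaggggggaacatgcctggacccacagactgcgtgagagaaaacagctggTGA
SSX4: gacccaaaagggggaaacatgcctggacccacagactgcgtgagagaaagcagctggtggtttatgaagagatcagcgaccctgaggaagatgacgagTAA
SSX5: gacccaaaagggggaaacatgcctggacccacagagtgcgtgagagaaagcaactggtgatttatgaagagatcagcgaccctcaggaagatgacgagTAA
SSX7: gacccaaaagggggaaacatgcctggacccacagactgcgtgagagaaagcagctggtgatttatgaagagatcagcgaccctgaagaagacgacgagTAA

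Over the 105 nt the SSX2 exon matched that of SSX2B at 105 positions, and the other pairs matched at 100 to 102 positions. SSX2 and SSX2B had the same score, 119.82. The scores were 88.44 in SSX5, 438.33 in SSX7 and 1087.6 in SSX4, the last on the scale of the HL60/MX2 list. SSX7 had its second member, with a score of 789.88, from 6 to 151 nt past the stop codon, in the next exon. Reads of copies as alike as these may have been split between them, so the gene of each such peak is uncertain.

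Copies were a wider matter. Of the members of at least 30 bp, 19 of 283 in HL60 (6.71%, 4.09-10.3%) and 17 of 267 in HL60/MX2 (6.37%, 3.75-10.0%) had their whole sequence also in an exon of another gene. OR2A4 and OR2A7, odorant receptors on different chromosomes, had HL60 members of 200 bp with the same sequence and the same score of 118.77. RHOXF2 and RHOXF2B, homeobox copies, had HL60 members of 329 bp with scores of 429.42 and 438.33. PPIAL4A, POTEI and PTPN20B, whose sequences are given above, also had copies, and so had CELA3A, a pancreatic elastase, in HL60/MX2.

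Few members overlapped a peak of the other line. In HL60, 11 of 300 members (3.67%, 1.84-6.47%) overlapped an HL60/MX2 peak, where 6.17% of all placed HL60 peaks did. In HL60/MX2, 18 of 286 (6.29%, 3.77-9.76%) overlapped an HL60 peak, where 6.17% of all placed HL60/MX2 peaks did. Both intervals took in the background. In 8 genes the overlap was between members of both lines. In the other overlaps the partner counted to the CDS or the 3'UTR, as for CCNA1, the testis cyclin A1, where the HL60 member of 101 bp lay within an HL60/MX2 peak of the CDS with a score of 1034.6.

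Genes with a member in both lines were 11, out of 574 with a member in either line. They were GAGE2B, HECW1, ITGB3BP, NCAPH, PDE6H, POTEI, PTPN20B, SH3BGR, SPICE1, TMEM116 and TRIM43B. Positions count from the middle base of the stop codon, with the coding side negative, and cover the bases of a peak that lie on the annotated mRNA.

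SPICE1 had the same peak in both lines, from -140 to -53, with a score of 411.74 in HL60 and 758.07 in HL60/MX2. This was at or above the scores of 83.0% and 89.5% of the lists, the peak itself and ties included, as in the percentages below. PTPN20B also had the same peak, from -127 to -65, with scores of 248.85 and 379.98. In SH3BGR the peaks shared their start at -94, a splice junction, and ended at -19 in HL60 and -30 in HL60/MX2. The SH3BGR score was 316.12 in HL60, at or above 71.9% of the list, and 2960.5 in HL60/MX2, at or above 99.3%. The peaks of SPICE1 and SH3BGR also lay over an exon of an overlapping gene on the same strand, so that the gene of these peaks is uncertain. In POTEI both peaks ended with the stop codon, with a score of 676.69 in HL60, at or above 94.9% of the list, and 56.16 in HL60/MX2, at or above 2.47%.

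HECW1 and PDE6H also shared a start at a junction. In HECW1 the peak ran from -110 to -17 in HL60 and from -110 to 77 in HL60/MX2, so that the stop codon was covered in HL60/MX2 and not in HL60. In PDE6H it ran from -75 to 90 and from -75 to 144. TRIM43B, a RING finger gene, had a common end at 157 and starts at -294 in HL60 and -116 in HL60/MX2. TMEM116, a membrane protein, had peaks from -178 to 48 and from -151 to 82. In these 4 genes the overlap was 94, 166, 315 and 200 bp.

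The other 3 genes had members that did not overlap. In GAGE2B, a cancer testis antigen, the HL60 peak covered the exon from -147 to -22 and the HL60/MX2 peak the next and last exon, from -21 to 76, so that they met at the junction. In NCAPH, a subunit of condensin, the HL60 peak ended at the junction at -59 and the HL60/MX2 peak began at -58. In ITGB3BP, a centromere protein, the HL60 peak ran from 3 to 102 and the HL60/MX2 peak from -105 to -49. GAGE2C, a copy of GAGE2B, had the exon from -147 to -22 as its member in HL60/MX2. Over all members at a junction, a peak of the other line lay at the facing exon end for 5 of 173 in HL60 (2.89%, 0.945-6.62%) and 7 of 169 in HL60/MX2 (4.14%, 1.68-8.35%).

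**Figure D3:**
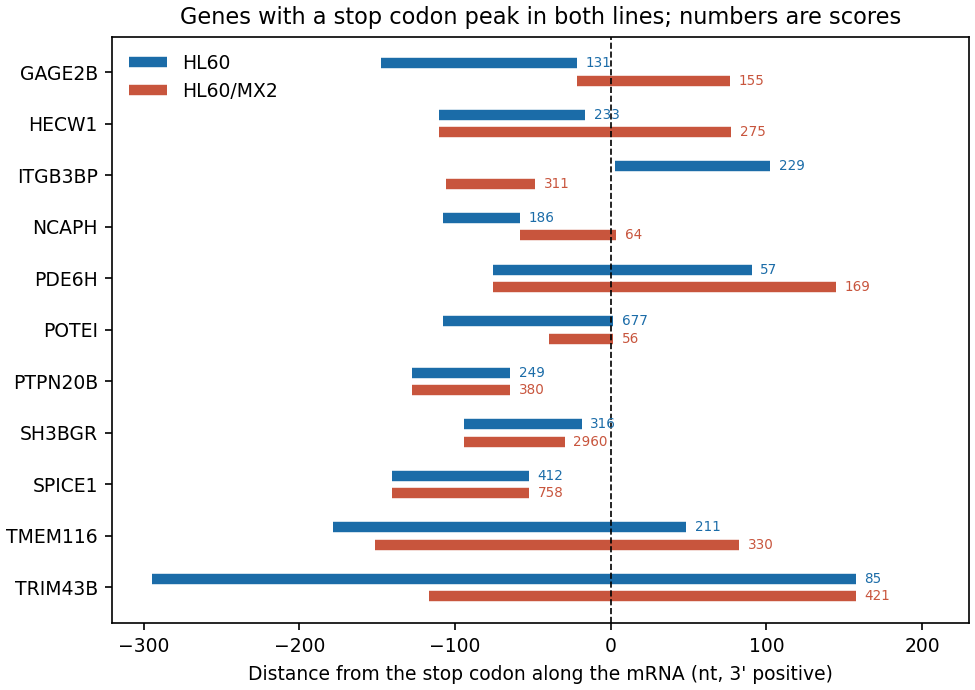
Extent of the members (bars, HL60 above HL60/MX2 for each gene) along the spliced mRNA (nt from the stop codon, horizontal axis) in the 11 genes with a member in both lines, with each score, on the scale of its own list, at the end of the bar. The bars of SPICE1 and PTPN20B coincide, those of GAGE2B and NCAPH meet end to end at a junction, and those of ITGB3BP lie on opposite sides of the stop codon.

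Most member genes with a peak in the other line had it elsewhere, as most placed peaks lay outside the class. It held 4.56% of the placed HL60 peaks and 4.32% of the placed HL60/MX2 peaks. A peak of the other line was found in 116 of the 299 HL60 genes (38.8%, 33.2-44.6%), where 46.1% of all genes with a placed HL60 peak had one. It was found in 120 of the 286 HL60/MX2 genes (42.0%, 36.2-47.9%), where the background was 43.1%. Of the 161 HL60/MX2 peaks in the HL60 genes, 80 fell in the CDS, 24 in the 3'UTR, 17 around the start codon and 11 around the stop codon. Of the 187 HL60 peaks in the HL60/MX2 genes, 101 fell in the CDS, 33 in the 3'UTR, 12 around the start codon and 11 around the stop codon. Within a line the member was the only listed peak of its gene for 62.2% (56.4-67.7%) of the HL60 genes and 69.6% (63.9-74.9%) of the HL60/MX2 genes, against 67.8% and 72.0% of the other genes.

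Scores, used only within a list because their scale is not stated, were near the middle of each list. The median was 203.83 in HL60 members against 196.77 in the other placed peaks, and 285.85 in HL60/MX2 members against 253.4. A score at or above the median of the list was found in 52.0% of the HL60 members (46.2-57.8%) and 52.8% of the HL60/MX2 members (46.8-58.7%). By position, the medians were 203.83 across the stop codon, 186.5 on the coding side and 223.5 on the 3' side in HL60, and 290.38, 244.7 and 432.98 in HL60/MX2, the last over 14 peaks. Score was nearly unrelated to length, GC, last exon length and midpoint over the members of a list, with Spearman's rho from -0.0042 to 0.032 over 300 HL60 members and from -0.035 to 0.075 over 286 HL60/MX2 members (285 for GC). Many peaks had tied scores, with 189 distinct values among the 300 members and 199 among the 286.

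**Figure D4:**
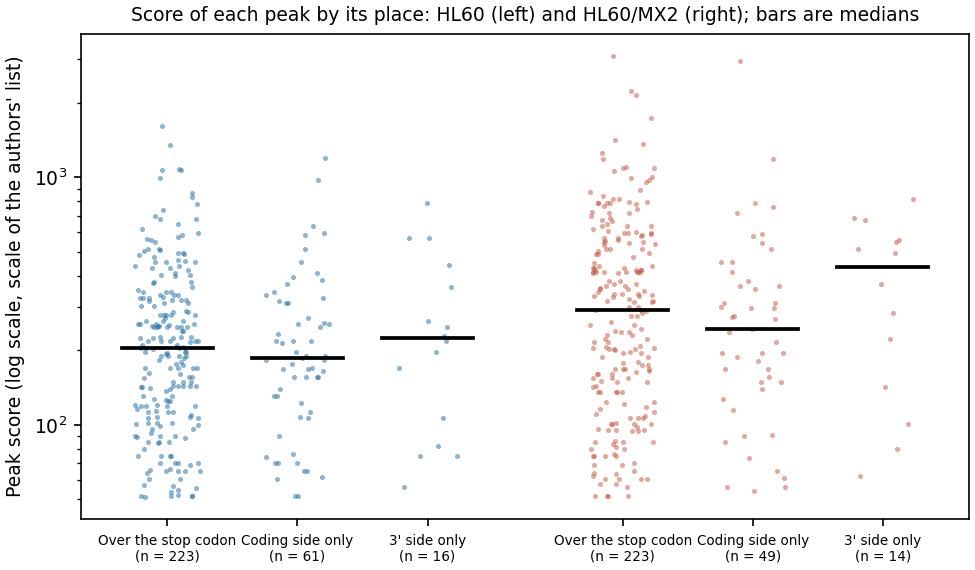
Score of each member (points, logarithmic vertical axis, each line on the scale of its own list) by position relative to the stop codon, with medians as bars, for HL60 (left) and HL60/MX2 (right). The highest points lie over the stop codon (1612.7 and 3100) and the 3' side, with the fewest peaks, reaches 789.88 and 818.2, with medians of 203.83, 186.5 and 223.5 in HL60 and 290.38, 244.7 and 432.98 in HL60/MX2.

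The highest scores of HL60 members were in PPIAL4A (1612.7), PRTG (1354.8), TTC29 (1200.8), a protein of the sperm tail, CT47B1 (1085.6), a cancer testis antigen, and RP13-996F3.5 (1074.2). INO80C (1073.6), of a chromatin remodelling complex, APOBEC3B (995.52), a cytidine deaminase of antiviral defence, ADH1C (973.31), an alcohol dehydrogenase, SYN2 (865.8), of synaptic vesicles, and SPAG11B (832.06), of the epididymis, followed. TTC29 and ADH1C were on the coding side, and the other 8 covered the stop codon. In HL60/MX2 the highest were ZNF236 (3100), SH3BGR (2960.5), KRT34 (2229.2), SDCBP2 (2149.5), a PDZ domain adaptor, and BEX1 (1738.5). TP73 (1416.3), of the p53 family, CELA3A (1368.5), GRIK5 (1250.8), a kainate receptor subunit, ANP32E (1182.6), a chaperone of the histone H2A.Z, and IQSEC3 (1181.4), an exchange factor for Arf proteins, followed. SH3BGR and ANP32E were on the coding side. The 3100 of ZNF236 was the highest value of that list and was held by 53 peaks, and the HL60 peak of the CDS that it overlapped by 44 bp had a score of 3100 too.

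GC content of members lay between that of CDS peaks and that of 3'UTR peaks. The median was 43.97% in HL60 (quartiles 38.9% and 50%) and 46.3% in HL60/MX2 (40.3% and 53.7%). It was 46.5% and 48.1% in peaks of the CDS class, and 38.9% and 41.4% in those of the 3'UTR class. Within the members of HL60 the median was 46.2% on the coding side, 43.5% across the stop codon and 40.9% on the 3' side, and in HL60/MX2 it was 46.8%, 46.3% and 45.4%. The extremes above 30 bp were TLR3, a receptor for double-stranded RNA, at 24.5% over 200 bp in HL60, and PLEKHB2 at 75.2% over 254 bp in HL60/MX2, both chosen after their values were seen. The median was higher in HL60/MX2 than in HL60 in each of these classes, and the part of this in the other comparisons of the lines was not tested.

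**Figure D5:**
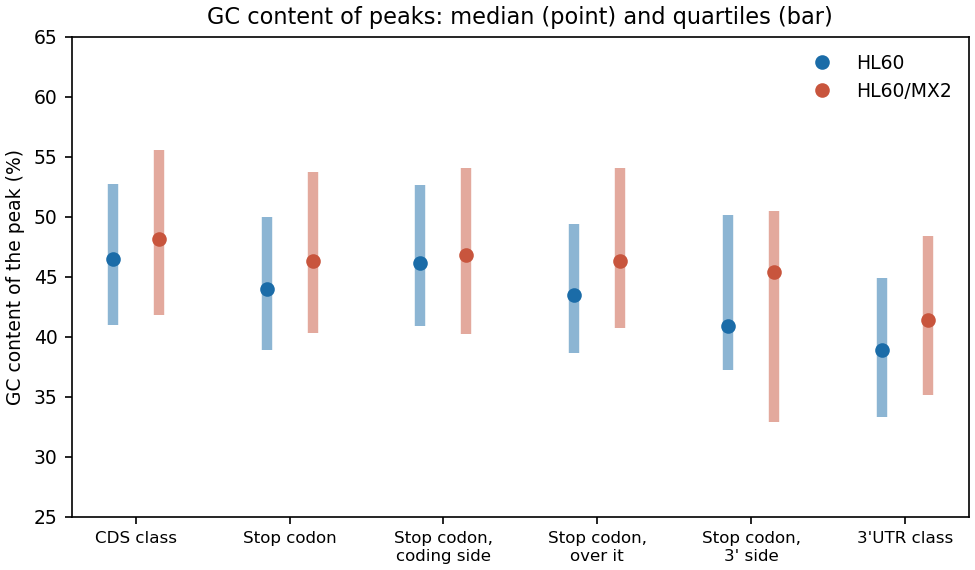
GC content (%, vertical axis) of peaks as median (point) and quartiles (bar) for HL60 and HL60/MX2, in the CDS class, the stop codon class as a whole and by position, and the 3'UTR class. Members around the stop codon (43.97% and 46.3%) sit between CDS peaks (46.5% and 48.1%) and 3'UTR peaks (38.9% and 41.4%).

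The mRNA around the stop codon was poorer in GC for members than in all annotated mRNAs. Whether the mRNAs of the other placed peaks differed in the same way was not tested, here or for the motifs below. In the 270 HL60 genes with a full window, the last 100 coding nt had a mean GC of 48.1% and the first 100 nt of the 3'UTR 43.1%. In 247 HL60/MX2 genes the means were 50.5% and 45.8%, and over 17710 annotated mRNAs they were 52.2% and 48.7%. The stop codon was TAA in 36.5% of the HL60 genes (31.0-42.2%) and 36.8% of the HL60/MX2 genes (31.2-42.7%), against 28.3% of all mRNAs. TGA was used in 45.8% (40.1-51.7%) and 39.6% (33.9-45.6%) against 49.2%, and TAG in 17.7% (13.6-22.5%) and 23.5% (18.7-28.9%) against 22.5%. With all mRNAs weighted to the GC of the members' windows, an alternative added after seeing the data, TAA came to 33.8% for HL60, inside the interval, and to 31.0% for HL60/MX2, just below it. The base after the stop codon was A in 34.2% (28.8-39.96%) and 31.5% (26.0-37.4%) of the member genes against 29.3% of all, and G in 25.8% (20.9-31.2%) and 30.04% (24.7-35.9%) against 32.1%.

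The motifs searched, on the strand of the gene, were GGAA followed by A or G, CTG followed by G or T and then by A or G (the CTG group), and the sequence GGAC, a core of m6A sites. The GGAA motif and the CTG group are motifs that the paper reports from its own search of the m7G peaks of this study. Their shares around members are therefore not independent of these peaks and are no separate evidence of enrichment. The GGAA motif was found in 65.6% of the HL60 windows (59.6-71.2%) and 57.5% of the HL60/MX2 windows (51.1-63.7%), against 53.5% of all windows of the same 203 nt. Weighted to the GC of members, the share of all windows was 58.2% for HL60 and 55.9% for HL60/MX2, so that the HL60 interval lay above it and the HL60/MX2 interval took it in. On the opposite strand the same motif was in 50% (43.9-56.1%) and 46.6% (40.2-53.0%) against 46.4%. The CTG group was in 73.0% (67.2-78.2%) and 74.1% (68.2-79.4%) against 77.8%, and 74.6% and 76.2% after weighting. GGAC was in 48.1% (42.1-54.3%) and 53.4% (47.0-59.8%) against 57.9%, and 52.2% and 55.1% after weighting. A match is a description of letters and not a modified base. A match of the CTG group can share its last letters with a match of either other motif, and was then counted for both.

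Gene groups were read from lists of symbols and families. None of the lists for translation termination and nonsense-mediated decay (22 genes), stop codon readthrough (11), drivers of acute myeloid leukemia (32), drug efflux and topoisomerases (16) and enzymes of m7G and the cap (16) had a gene with a member in HL60 or HL60/MX2, although 3 to 12 genes of each had a peak somewhere in a line. The share over all genes was 1.52% and 1.46%, and the upper limits of the intervals for these lists ran from 10.9% to 28.5%, so that lists of this size set no close limit. Of 24 selenoprotein genes, which read TGA as selenocysteine, GPX6 had a member in HL60/MX2 (score 346.57, over TAG). Of 97 ribosomal protein genes none had a member in either line.

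Odorant receptors had members in 9 of 390 genes in HL60 (2.31%, 1.06-4.34%) and 7 in HL60/MX2 (1.79%, 0.725-3.66%). No odorant receptor gene was in both, but over all member genes only 3.68% in HL60 and 3.85% in HL60/MX2 were. All 16 odorant receptor members covered the stop codon, with scores from 65.03 in OR52K1 to 334.94 in OR10G8 in HL60 and from 118.08 in OR2Y1 to 784.33 in OR9G1 in HL60/MX2. In OR1J2 the peak of 281 bp shared a single base with the annotated mRNA. Zinc finger genes had members in 2 of 511 in HL60 (0.391%, 0.0474-1.41%), ZNF471 (572.8) and ZNF474 (196.77), and in 5 in HL60/MX2 (0.978%, 0.318-2.27%), ZNF236, ZNF385D, ZNF461, ZNF462 and ZNF679. Cancer testis antigen families, a list chosen after its values were seen, had members in 8 of 120 genes in HL60 (6.67%, 2.92-12.7%) and 5 in HL60/MX2 (4.17%, 1.37-9.46%). In HL60 they were CT47B1, GAGE2B, MAGEA1, MAGED4, SSX2, SSX2B, SSX5 and SSX7, and in HL60/MX2 GAGE2B, GAGE2C, SPANXA2, SSX4 and XAGE1C. The members in GAGE2B, GAGE2C, MAGED4, SPANXA2, SSX2, SSX2B, SSX4 and XAGE1C had an identical copy in another gene. Such genes may not be separate counts, as the intervals take them to be, so these intervals set no limit on the share.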

How the data were processed

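m7G MeRIP-seq was read from the peak lists of 1 enriched library per line (2 lists, 4 samples with the inputs, which hold no list). By the labels and the study's methods, the authors trimmed reads with cutadapt 1.9.3, aligned them to hg19 with HISAT2 2.0.4 (STAR was used for the inputs) and called peaks with MACS, whose version is not given in the sources used here. The authors kept peaks over mRNA exons. The deposited score of each peak is on a scale that is not stated, and the deposited positions are starts and ends on hg19, printed here from 1.

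Genes were those of GENCODE release 44 placed on hg19 (20163 genes, 19639 with a stop codon). Peaks were classed by the section of the transcript of longest coding sequence that they overlapped most. Sequence came from hg19. The members, lists and named genes were chosen with earlier results of these data known. Named genes were those with a member in both lines, the 10 highest scores and 5 longest members per line, genes with more than 1 member, and members of the lists. On simulated data, 1200 peaks placed around known stop codons had their class, side and midpoint recovered in 100% and their gene in 99.5%. These peaks lay in the exon of the stop codon, away from its ends. Class, side and midpoint were read on the transcript used to place the peak. The simulation therefore says nothing about members at a junction, past an exon or given to a wrong gene. Alternatives varied the transcript, window, class rule, score, length, gene overlap and overlap between lines. Python 3.11.15, numpy 2.4.6, scipy 1.17.1, pysam 0.24.0 and matplotlib 3.10.9 were used. A few items are not reported here.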

Additional observations from a re-analysis of the deposited data

How the results depend on the processing

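With the transcript of longest spliced length, 272 of the 300 HL60 and 268 of the 286 HL60/MX2 members were kept, the median last exon length moved to 1254 and 1231 nt, and the shares in the class, over the stop codon, centred 3' of it and at or above the median score, the GC and the number of genes in both lines stayed within their limits. With 50 nt on each side of the stop codon the class held 1.85% and 1.95% of the placed peaks, 87.7% and 86.0% of the members covered the stop codon, and 1 gene had a member in both lines. In HL60, GC then moved to 45.0% and the last exon to 788.5 nt. With 200 nt on each side the class held 9.83% and 9.19%, 44.5% and 45.6% of the members covered the stop codon, 50 genes had a member in both lines, and GC in HL60/MX2 moved to 47.8%. The share of peaks in the class grows with the width of the window by its definition, and a wider window also takes in more peaks that miss the stop codon. The part of the width in the shifts of GC and last exon length was not tested. Keeping peaks of at least 50 bp raised the share over the stop codon to 80.8% and 84.3%. With scores at or above the median of each list, 6 genes had a member in both lines, from fewer peaks. An overlap of at least 50% of both peaks left 3.50% of the HL60/MX2 members overlapping the other line. The midpoint rule, peaks over a single gene and a gap of up to 100 bp kept each of the results compared within its interval. No paired analysis was possible because no result comes from a test and each line has 1 library. The absence of replicates, the unknown depth and the unstated score scale limit all values.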
